A study of Mus musculus with 3 samples.

Results

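The retina's translation machinery was followed here through 145 mouse genes, represented by 195 probe sets of an Affymetrix U74Av2 array, out of 8251 named genes and 12422 probe sets. A probe set is a group of short oligonucleotides that together report 1 transcript. Members were chosen by gene symbol, with no measured value in the rule, although the group was proposed with earlier results of these data known: probe sets with a single symbol that starts with Rpl or Rps (ribosomal proteins of the cytosol, without the S6 kinases named Rps6k), Mrpl or Mrps (ribosomal proteins of the mitochondrion), Eif followed by a digit (initiation factors), Eef (elongation factors) or Etf1 (the release factor), leaving out Eif2s3y. They comprised 35 genes of the cytosolic ribosome (49 probe sets), 61 genes of the mitochondrial ribosome (76), 40 genes of initiation factors with their kinases and binding proteins (56), and 9 genes of elongation and release (14).

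All 3 arrays held total RNA of neural retina from Rp1-/- mice, knockouts of a photoreceptor gene whose product binds the microtubules of the outer segment. The animals were of postnatal day 10, on a background mixed from 129/SvEv and C57BL/6, and retinas were taken between 1 and 2 pm. Each array was hybridised with a pool from 3 to 4 mice. No control genotype was analysed here, so every comparison below is between pools of the same genotype, and none measures an effect of losing Rp1. The pools are called 1, 2 and 3 in accession order, which is a name only. The tag rp1 is missing from 1 title, that of pool 1, although the description of that array states the same genotype. The labels do not say whether pools shared animals, so the technical part of the spread between pools is not known. Xist and the lens genes, given below, differed widely between pools. In bulk RNA, fewer cells of a type and less RNA per cell cannot be told apart.

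The cytosolic ribosome joins a small subunit, which reads the messenger RNA, to a large subunit, which forms the peptide bond. Initiation factors bring the initiator tRNA, the messenger cap and the small subunit together, elongation factors carry aminoacyl-tRNA and move the ribosome along, and the release factor ends the chain at a stop codon. Mitochondrial ribosomes, assembled from proteins encoded in the nucleus, make the few membrane proteins of the respiratory chain that mitochondrial DNA encodes, and photoreceptors are among the cells richest in mitochondria.

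Messages of many ribosomal proteins and some factors start with a cytosine and an unbroken run of pyrimidines, the 5′ TOP tract, through which TOR signalling controls their translation. The windows below show the tract at the start of cytosolic ribosomal and initiation factor genes. Of the 145 genes, 122 matched a RefSeq promoter table of GRCm38.p6, with 152 promoters that reach from 250 bases before to 50 bases after an annotated start. A tract was counted where the annotated first base was C and at least 4 more C or T followed, a minimum length of 5, on the transcribed strand only. It stood at 5 of 37 promoters of cytosolic ribosomal protein genes (13.5%) and at 2 of 48 of initiation factor genes (4.17%). Mitochondrial ribosomal protein genes had it at 0 of 60 promoters and genes of elongation and release at 0 of 7. The share was 823 of 32851 promoters in the whole table (2.51%) and 2.21% for protein-coding genes. At so low a share, counts of 0 or 2 do not set those groups apart from the whole table. The count asks for the exact annotated base, so a start placed a few bases off is missed. The 5 measured genes with the tract are printed 5′ to 3′ with the tract in capitals, 30 bases on either side of the start: Rps27 (chr3:90213619-90213678, minus strand), Rps10 (chr17:27635215-27635274, minus), Rps18 (chr17:33955636-33955695, minus), Eif3f (chr7:108934385-108934444, plus) and Eif2s3x (chrX:94212622-94212681, minus).
Rps27: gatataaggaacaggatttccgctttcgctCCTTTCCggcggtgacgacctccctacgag
Rps10: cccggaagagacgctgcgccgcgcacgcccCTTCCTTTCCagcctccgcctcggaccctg
Rps18: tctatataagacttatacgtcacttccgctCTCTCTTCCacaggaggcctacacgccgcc
Eif3f: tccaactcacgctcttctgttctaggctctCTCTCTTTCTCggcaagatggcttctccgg
Eif2s3x: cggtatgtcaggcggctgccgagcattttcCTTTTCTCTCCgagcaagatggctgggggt
Rps10 and Rps18 are proteins of the small subunit, and their tracts of 10 and 9 bases followed the start directly. The longest tracts, of 11 bases each, belonged to the initiation factor genes Eif3f and Eif2s3x.

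Another motif was about as frequent at mitochondrial ribosomal protein genes as at cytosolic ones. The letters CCGGAAG, the core bound by ETS-family factors, were searched on both strands of the 300 bases. They were found in 19 of 60 promoters of mitochondrial ribosomal protein genes (31.7%), in 12 of 37 of cytosolic ones (32.4%) and in 16 of 48 of initiation factors (33.3%), against 8.86% of all promoters and 11.6% of those of protein-coding genes. The letters AAGATGG, part of the motif of YY1, were in 24.3% of cytosolic and 18.3% of mitochondrial ribosomal protein promoters against 6.34% of all. CTTTCC, a pyrimidine stretch that can itself lie in a TOP tract, was in 54.1% of cytosolic ribosomal protein promoters against 26.6% of all. GCGCATGC, the motif of NRF1, was in 6.58% of the members' promoters against 2.71%. A match is a description of the letters in this window and not of a bound site. A pair of small-subunit genes shows the ETS letters in capitals, on the printed strand in Mrps22 (chr9:98601650-98601769, minus) and as their reverse complement in Mrps21 (chr3:95871485-95871604, minus).
Mrps22: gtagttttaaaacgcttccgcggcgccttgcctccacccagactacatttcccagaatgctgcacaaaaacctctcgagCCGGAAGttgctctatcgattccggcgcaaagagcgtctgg
Mrps21: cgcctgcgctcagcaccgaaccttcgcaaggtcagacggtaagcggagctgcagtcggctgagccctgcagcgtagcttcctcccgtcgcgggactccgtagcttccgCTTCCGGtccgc
Both were picked among the mitochondrial small-subunit genes with their highest signal in pool 2. Their shared highest pool follows from that choice and says nothing about the motif. Wherever a gene or set is said to read 3 values, these are its signals in pools 1, 2 and 3, in that order and in intensity units. Mrps21 read 1479, 1999 and 1590.4, and Mrps22 read 203, 249 and 186.

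Values are signals in intensity units as the authors deposited them, already scaled so that the trimmed mean of each array was 500.26, 500.25 and 500.26 in pools 1, 2 and 3. Signals of different probe sets are not relative amounts, since each set binds with its own strength. The background floor, the 90th percentile of 19 bacterial and yeast control sets, was 100.5, 124.8 and 120.4, and signals under it were set to it before log2 was taken. A probe set whose mean signal passed the mean floor is called measured, which held for 8327 sets of 6210 genes. The pools were not alike in all respects. Of the retina markers, 10 of 10 lay above the floor on all arrays and 8 of 10 were highest in pool 2. The 11 measured lens genes were all highest in pool 3, with summed signals of 94914, 25460 and 203614 in pools 1, 2 and 3. Xist, the RNA of the inactive X chromosome, read 69.5, 1384 and 1544. The ratio of 3′ to 5′ probe signal, a sign of RNA integrity, was 1.1, 1.4 and 1.63 for Actb. For Gapdh it was 0.82, 0.9 and 0.75, lowest in pool 3, so the controls did not share an order of pools.

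Across the translation machinery most signals lay close together in the 3 pools. Of its 195 probe sets, 157 were measured, for 129 of the 145 genes, and 148 of 195 lay above the floor on all 3 arrays, against 57.9% of the sets of the whole array. None of the 157 was called more variable than sets of like signal by the limma variance test with Benjamini-Hochberg adjustment over all 8327 sets (threshold 0.05), where 18 sets were called (0.216%). At an unadjusted p under 0.05 the count was 7 of 157, against 5.34% of all sets. The highest pool exceeded the lowest by more than 2-fold for 15 of 157 (9.55%), against 13.2% of all sets. The median SD of log2 signal was 0.228 for members and 0.268 for all measured sets. These comparisons are not at equal signal, since 36.9% of the measured members lay in the top of the 4 signal classes described below. From the lowest to the highest class, 24%, 16.1%, 6.98% and 1.72% of members passed 2-fold. Over all sets of these classes the shares were 24.6%, 17.05%, 6.78% and 4.32%. Within their class the members' SDs had a median percentile of 47.1, against 50 for all sets.

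The groups differed in where on the signal scale they lay and in their spread there. Measured sets were divided by mean signal into 4 classes of equal size. Of the 36 measured cytosolic ribosomal sets, 23 fell in the top class (63.9%), and among these the median SD of log2 signal was 0.151 and none passed 2-fold, against 0.207 and 4.32% over the 2082 sets of that class. Within the class the cytosolic sets lay higher, with a median mean signal of 9530 against 1633, so the comparison is not at equal signal. In the same class the median SD was 0.212 for 16 mitochondrial ribosomal sets, 0.259 for 14 initiation factor sets and 0.232 for 5 sets of elongation and release. In the bottom class the order turned, with 0.481 for 8 cytosolic ribosomal sets against 0.372 for all. In the plot of spread against signal, most blue points of the cytosolic ribosome at the right lie in the lower part of the cloud. Those at the left are scattered from low to high. A single green point stands well above its neighbours at a signal near those of abundant factors, the RNA helicase gene Eif4a2 described below.

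**Figure D1:**
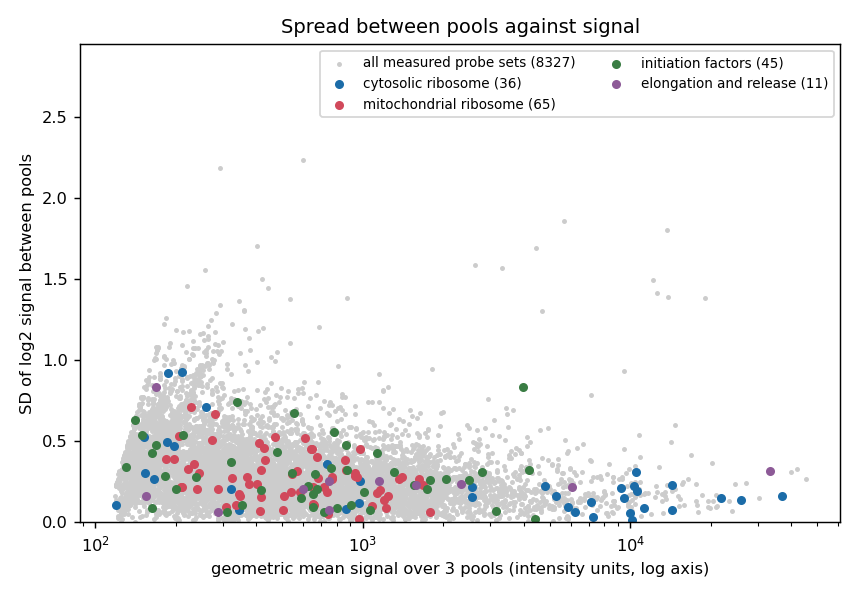
SD of log2 signal over the 3 pools (vertical axis) against the geometric mean signal in intensity units (horizontal axis, log scale), 1 point per measured probe set. Grey points are all 8327 measured sets and coloured points the 157 members by group, of which the cytosolic ribosomal sets of the top signal class had a median SD of 0.151.

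In the large subunit of the cytosolic ribosome the bright sets were steady. Rpl41, the smallest ribosomal protein, read 41205, 32998 and 36802 on an f-class set. The suffix f marks sets that can bind a family of related transcripts, s and g sets shared between similar ones, and r and i sets built under relaxed rules or with few probes. Rpl8, a protein beside the peptidyl transferase centre, read 10253, 8430.2 and 9905. For both, pool 1 was highest and pool 2 lowest, by 1.25-fold and 1.22-fold. Rpl6 read 6039, 6538 and 6087, a range of 1.08-fold over 3 pools. Rpl7a read 5596, 6322 and 5686, and Rpl10a, at the L1 stalk where spent tRNA leaves, read 6439.7, 7367 and 7594. Pool 2 was highest for Rpl6 and Rpl7a and pool 3 for Rpl10a, with ranges of 1.13-fold for Rpl7a and 1.18-fold for Rpl10a. An f-class set of Rpl10a differed, with 4678, 5658 and 4163, highest in pool 2 by 1.36-fold over pool 3. Rplp0, the base of the P stalk that recruits elongation factors, read 13809, 12540.0 and 17043, highest in pool 3 by 1.36-fold over pool 2 (limma adjusted p = 0.99). Rpl37a read 5018, 4928 and 6019.7, also highest in pool 3. Rpl22, which the ribosome can do without, read 902, 886 and 814. A dimmer Rpl22 set read 137, 252.2 and 224.4, a range of 1.84-fold with pool 1 lowest. Rpl13a, known also for a role in silencing inflammatory messages, read 854, 845 and 553, and was lower in pool 3 than in the other two. At the low end Rpl39, a protein lining the exit tunnel, read 73.2, 196 and 179; pool 1 was under the floor, so only a bound of at least 1.95-fold holds there.

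In the small subunit the steadiest member of all was found. Rps7, a protein needed to mature the small subunit's RNA, read 10012, 10163 and 10162, with an SD of log2 signal of 0.012 and a mean of 10110 ± 87.3 (SD, n = 3). Rps10, which sits near the messenger entry, read 7275, 7363 and 7075, and Rps3a1 read 9987, 10421 and 9609.7. The 3 pools of these sets nearly coincide in the plot of cytosolic ribosomal signals, with ranges of 1.04-fold for Rps10 and 1.08-fold for Rps3a1. Rps18 read 15221, 14242 and 13728 and Rps27 read 936, 1063 and 916, so the 3 ribosomal genes printed above with a TOP tract ranged by 1.04-fold, 1.11-fold and 1.16-fold. Rps3, the protein at the messenger entry channel that also acts in DNA repair, read 11415, 8652 and 11194, lowest in pool 2. Rps19, the gene most often mutated in Diamond-Blackfan anaemia, read 2246, 3026 and 2481, highest in pool 2. Rpsa, the laminin receptor precursor built into the small subunit, read 2399, 2436 and 2917, highest in pool 3. The order of pools thus differed from protein to protein. Counted over the 28 measured cytosolic ribosomal genes, 11 had their maximum in pool 1, 10 in pool 2 and 7 in pool 3. Over all measured genes the shares were 34.6%, 33.6% and 31.8%. On the log2 scale the group's median difference from pool 2 to pool 1 was -0.02, from pool 3 to pool 1 0.03 and from pool 3 to pool 2 0.06, beside 0, 0 and 0.01 for all genes.

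**Figure D2:**
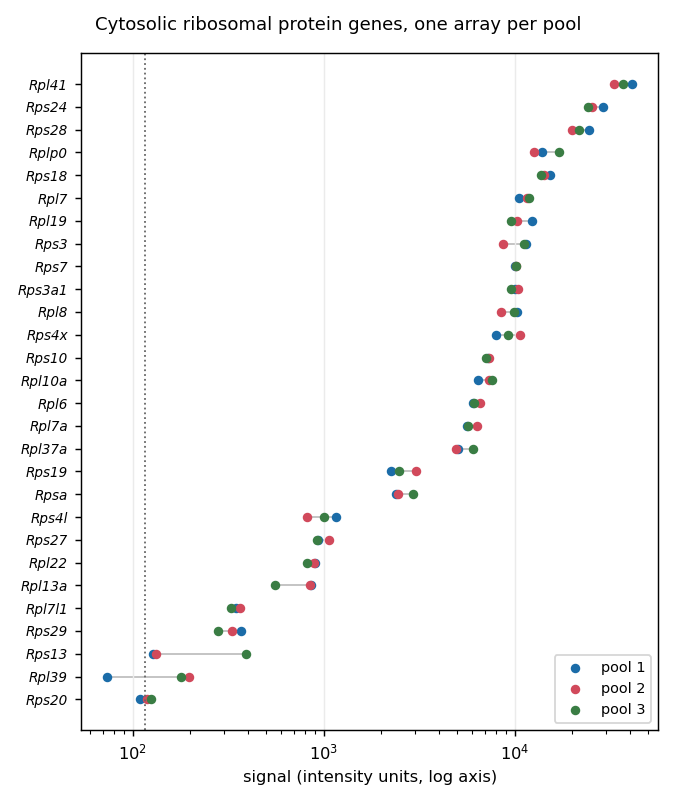
Signal of the 28 measured cytosolic ribosomal protein genes in intensity units (log axis), 1 point per pool, each gene by its probe set of highest mean signal and ordered by it. The dotted line is the mean background floor; the points of most genes lie together, while those of Rps13 and Rpl39 at the bottom spread out.

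The large spreads in this group came from dim probe sets. A dim set of Rpl19 read 173, 120.2 and 432, at least 3.46-fold higher in pool 3 than in pool 2, where it lay under the floor (unadjusted p = 0.031, limma adjusted p = 0.83). The bright Rpl19 set read 12374, 10221 and 9530.2, with pool 3 lowest, so the sets of 1 gene went opposite ways. Rps13, seen only by an r-class set, read 128, 132 and 393, with pool 3 higher than the other two by up to 3.08-fold (unadjusted p = 0.031, limma adjusted p = 0.83). A dim r-class set of Rps4x read 194, 459 and 199, highest in pool 2, and the bright set read 7972, 10644 and 9268, also highest in pool 2.

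Some names in this group rest on uncertain annotation. The bright r-class set annotated to Rps24 read 28839, 25317 and 24109, and an s-class set annotated to Rpl7 read 10532, 11529 and 11804. Both carry the same sequence record in the annotation, although their symbols are those of different genes. The other set of Rps24 read 153, 205 and 145, near the floor, and the other set of Rpl7 read 7.3, 7.7 and 14.1, under it on every array. Which gene the bright sets report was not settled here. For Rps28, an f-class set read 24458, 19962 and 21576 and a plain set 12939, 8433 and 10739.9, both highest in pool 1 and lowest in pool 2. An r-class set from the same record as the f-class one read 170.1, 176 and 56.8, under the floor in pool 3. Ribosomal protein genes have many processed pseudogenes, to which such probes may also bind.

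Of 16 member genes no set was measured. They were Rpl32, Rpl35a, Rpl38, Rpl39l, Rps14, Rps15 and Rps27l of the cytosolic ribosome, Mrpl14, Mrpl42, Mrpl49 and Mrps5 of the mitochondrial one, and Eif2ak2, Eif4ebp1, Eif4enif1, Eef1g and Eef2k among the factors. Rps14 read 27.0, 51.9 and 14.4 and Rpl35a read 32.4, 29.7 and 44.4, below the floor in each pool, although both are core proteins of the cytosolic ribosome. Eef1g, a subunit of the exchange factor of elongation, read 4.4, 49.4 and 5.6. A set below the floor gives a bound for its own probes only and does not show that the message was absent. Of 37 sets with an f, r, i, s or g suffix 12 were not measured, and of 158 plain sets 26 were not.

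The mitochondrial ribosome was the largest group, with 57 of 61 genes measured, and all 65 measured sets lay above the floor in each pool. None of the 65 had an unadjusted p under 0.05, against 5.34% of all measured sets, and none was called by limma. A range past 2-fold was found for 4 of 65 (6.15%), against 13.2% of all sets. Among large-subunit genes, Mrpl52 read 1866, 1752 and 1723 and Mrpl23 read 984, 962 and 973. Mrpl23 was the steadiest mitochondrial set, with an SD of log2 signal of 0.017. Mrpl18, a protein that carries 5S RNA towards the organelle, read 1516, 2004 and 1416 on its f-class set, highest in pool 2. Mrpl51 read 1127, 1591 and 1549.8, and Mrpl48 read 683, 1226 and 1116 on an f-class set. In both, pool 1 was the low one. A second Mrpl48 set read 436, 400.0 and 403, with pool 1 highest. Mrpl12, a stalk protein reported to bind mitochondrial RNA polymerase, read 643, 766 and 569. Mrpl43 read 540.3, 913 and 459.6, highest in pool 2 by 1.99-fold over pool 3.

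Several mitochondrial large-subunit genes had pool 1 alone at the bottom. Mrpl33 read 130.5, 271 and 333, a range of 2.55-fold, and Mrpl13 read 328, 462 and 679.5, a range of 2.07-fold. Mrpl21 read 491, 770.2 and 813, and Mrpl46 read 136, 244 and 266. Their SDs of log2 signal, from 0.4 to 0.71, were not called against sets of like signal (limma adjusted p = 0.99 for each). Others went another way: Mrpl3 read 702, 453 and 584, Mrpl4 read 1396, 1119.7 and 1241 and Mrpl37 read 796, 631 and 784, with pool 1 highest in all 3. Mrpl58, a hydrolase that frees stalled chains from the ribosome, read 325, 446 and 549.8.

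The mitochondrial small subunit was more uniform in the order of its pools. Mrps14 read 1154, 1269 and 988, Mrps17 read 1081, 1299.6 and 1236, and Mrps33 read 663, 1124 and 846. Each was highest in pool 2, as were Mrps21 and Mrps22 above. Mrps11 read 606, 795 and 772, Mrps31 read 595, 899 and 489, and Mrps25 read 178, 280.2 and 222 on an f-class set. Again pool 2 was highest in each; Mrps31 was lowest in pool 3, and the other two were lowest in pool 1. The widest range was that of Mrps10, with 322, 409 and 167, 2.44-fold between pools 2 and 3 (limma adjusted p = 0.99). The 5 genes that were not highest in pool 2 were Mrps36, Mrps12 and Mrps26, with their maximum in pool 3, and Mrps16 and Mrps2, with theirs in pool 1. Mrps36 read 817, 852 and 1172 and Mrps12 read 337, 407 and 527. Mrps26 read 442, 368 and 446, Mrps16 read 306, 187 and 227 and Mrps2 read 417, 407 and 311. Mrps36 has since been described as a subunit of the oxoglutarate dehydrogenase complex. For Mrps18a the sets disagreed: the brightest r-class set read 832, 1195 and 834, highest in pool 2, while another r-class set read 816, 627 and 896, a plain set 676, 526 and 561 and an f-class set 279, 191 and 387, each lowest in pool 2.

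**Figure D3:**
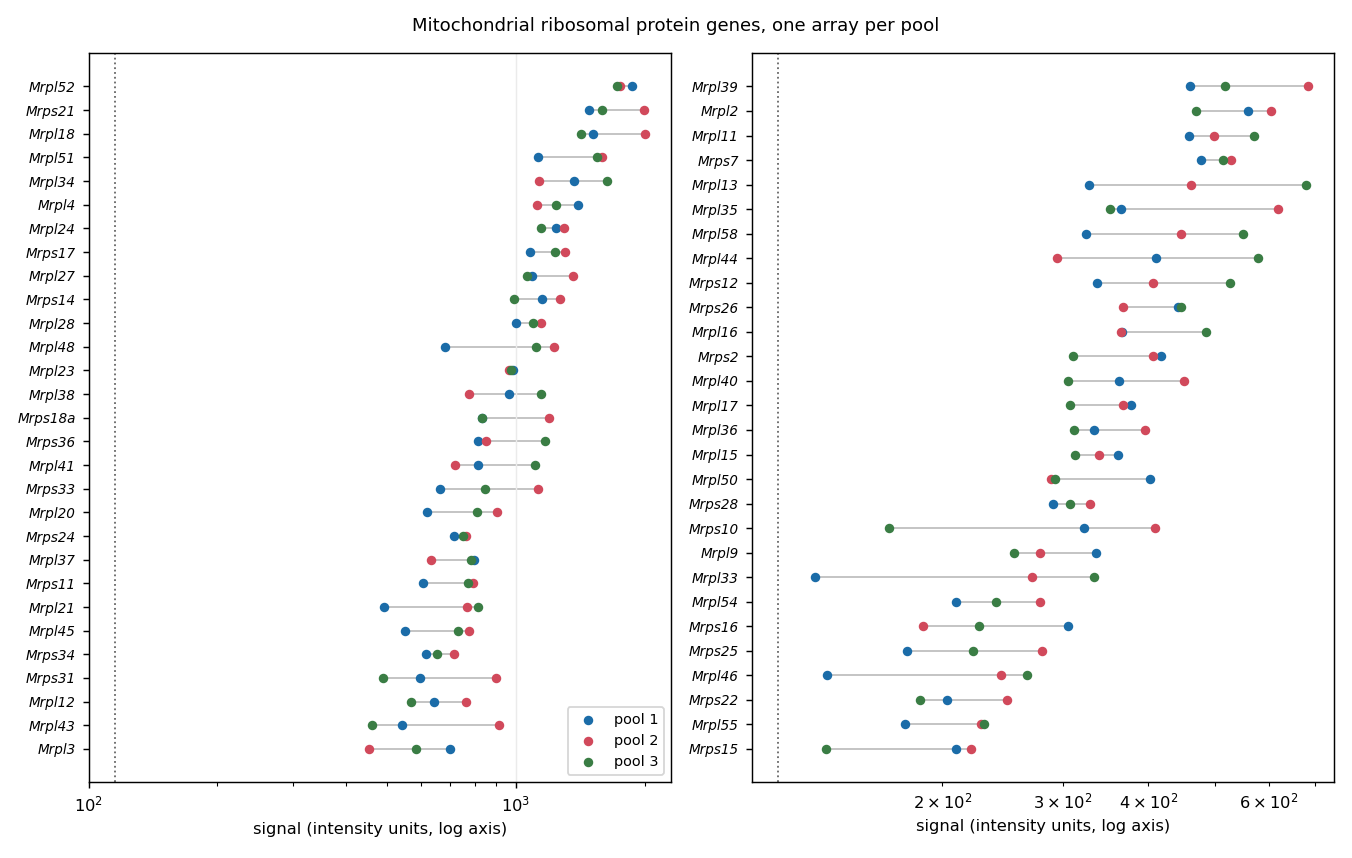
Signal of the 57 measured mitochondrial ribosomal protein genes in intensity units (log axes of different range in the left and right panel), 1 point per pool, each gene by its probe set of highest mean signal. The dotted line is the mean background floor; pool 2 is the rightmost point for 31 of the 57 genes.

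Counted over genes, the mitochondrial ribosome leaned to pool 2 and away from pool 1. Of its 57 measured genes 31 were highest in pool 2 (54.4%), against 33.6% of all measured genes, 11 were highest in pool 1 against 34.6%, and 15 in pool 3 against 31.8%. In 40 of 57 the signal was lower in pool 1 than in pool 2, against 50.2% of all genes. The lean was present in both subunits for the comparison of pools 1 and 2: 17 of 20 small-subunit genes and 23 of 37 large-subunit genes were lower in pool 1. Highest in pool 2 were 15 of 20 and 16 of 37. By median, the group's log2 signal in pool 1 differed by -0.24 from that in pool 2 and by -0.08 from that in pool 3, and pool 2 differed by 0.09 from pool 3. In each subunit taken alone the median for pool 1 minus pool 2 was -0.24. Initiation factor genes shared the lean away from pool 1, with 25 of 37 lower there than in pool 2, although their median was -0.06. In the cytosolic ribosome the count was 15 of 28, and in elongation and release 2 of 7. These counts were chosen after the values were seen and carry no test.

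The lean of the mitochondrial ribosome differed between signal classes. From the lowest to the highest class, the median of pool 1 minus pool 2 was -0.37 over 5 genes, -0.09 over 18, -0.32 over 18 and -0.17 over 16, beside -0.06, 0.02, -0.01 and 0.01 for all genes. The second class came closest to the background, with 9 of 18 genes lower in pool 1. Marker genes of other kinds also differed between these pools. Summed signals of the 10 retina markers were 78674, 99112 and 92537 in pools 1, 2 and 3, with a median log2 difference of -0.4 for pool 1 minus pool 2, the same direction as the mitochondrial genes. The blood and lens markers ran the opposite way, with medians of 0.35 over 5 genes and 1.84 over 11. The blood markers summed to 20819, 13003 and 10969, and 3 of 5 were highest in pool 1. The part of these differences in the mitochondrial result was not tested. Pigment epithelium markers (4 genes) summed to 1434, 1381 and 2221, endothelial markers (6 genes) to 1711, 1782 and 2138, and muscle markers (7 genes) to 1450.4, 1147 and 1380.4.

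**Figure D4:**
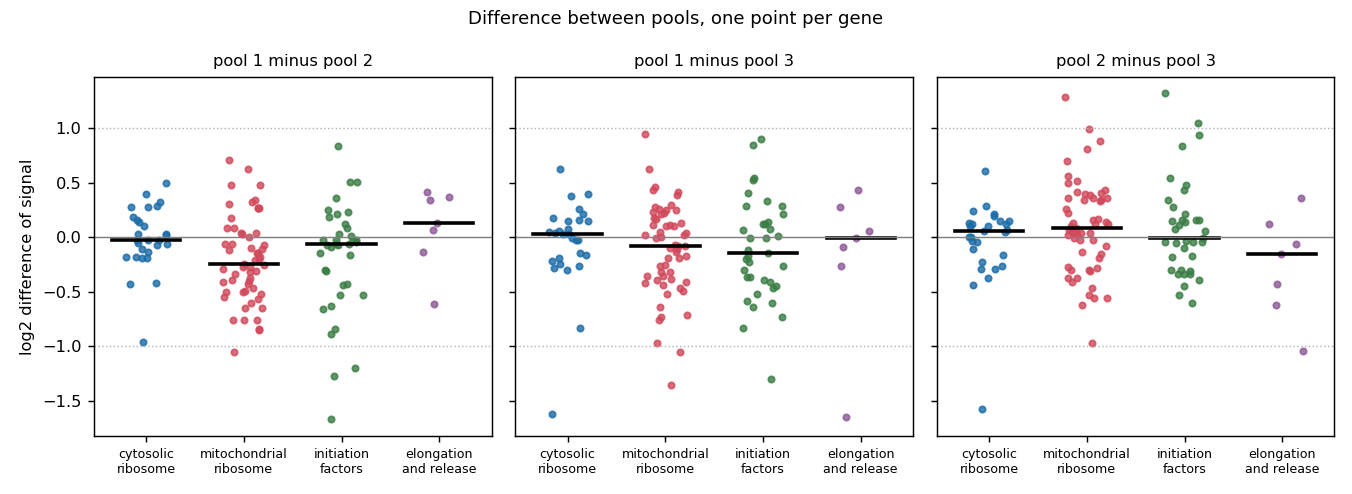
Difference of log2 signal between each pair of pools (vertical axis), 1 point per measured gene, by group; black bars are group medians, dotted lines mark 2-fold and 0 means equal signal. Of the medians for pool 1 minus pool 2, that of the mitochondrial ribosome lies at -0.24 and that of the cytosolic ribosome at -0.02.

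In the plot of differences between pools, the bars for the cytosolic ribosome sit near 0 in all 3 panels, while the mitochondrial bar lies below 0 in the first panel. Points past the dotted lines were few: 4 of 129 member genes for pools 1 and 2, 5 for pools 1 and 3 and 5 for pools 2 and 3, against 5.65%, 6.18% and 4.86% of all measured genes. The 3 panels share pools, so they are not independent of each other.

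Initiation factors held the member that varied most for its signal. Eif4a2, the form abundant in brain of the helicase that unwinds the messenger's leader, read 2237, 7113 and 3977, a range of 3.18-fold with pool 2 highest and pool 1 lowest (mean 4443 ± 2471, SD, n = 3). Its unadjusted p was 0.00059 and its limma adjusted p 0.18, so it was not called. Over the alternative settings the limma adjusted p ran from 0.0014 to 0.98, and Eif4a2 was called with no filter on low signals (0.0014) and after quantile normalization (0.041). The related helicase Eif4a1 was seen by an r-class set only, which read 596, 1104 and 991, also with pool 2 highest and pool 1 lowest (limma adjusted p = 0.99). Pool 2 was also the highest and pool 1 the lowest for the summed retina markers. Whether these move together was not tested.

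The rest of the cap-binding machinery was partly dim. Eif4e, which binds the cap, read 97.8, 156 and 144, under the floor in pool 1, and its relative Eif4e2 read 336, 344 and 387. An f-class set of Eif4e2 read 96.2, 158.4 and 209.6, under the floor in pool 1, so its range was at least 2.09-fold. Of the scaffold family, Eif4g2, which lacks the cap-binding region, read 702, 868 and 1097, and Eif4g3 read 1502, 1166 and 835. The 2 scaffolds had opposite orders, Eif4g2 with pool 3 highest and Eif4g3 with pool 1 highest. Eif4b, a cofactor of the helicase, read 1594, 1612 and 2047 on a g-class set, while a plain set from the same record read 54.6, 73.6 and 120.1, under the floor on every array. Eif4h, a related cofactor, read 224, 126 and 154. Eif4ebp2, the repressor of Eif4e that prevails in neurons, read 2166, 1518 and 1718, highest in pool 1 by 1.43-fold over pool 2. Eif4ebp1 was not measured.

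The factor eIF3, a large complex on the small subunit, held both steady and scattered members. Its core subunit Eif3c read 4434, 4344 and 4464, a range of 1.03-fold. Other subunits of its body were Eif3a with 612, 608 and 753, Eif3l with 2660.1, 2331 and 3543 and Eif3k with 2038, 2773 and 2787. Eif3b and Eif3d, the latter a second cap-binding protein, read 1552, 1323 and 1814 and 2379, 1670.2 and 2189. Pool 3 was highest for Eif3a, Eif3b, Eif3c, Eif3k and Eif3l. Eif3e read 619.8, 834 and 333, 2.5-fold from pool 3 to pool 2 (unadjusted p = 0.019, limma adjusted p = 0.78). Eif3j1, a loosely held subunit, read 678, 1216 and 587, 2.07-fold between the same pools (unadjusted p = 0.037, limma adjusted p = 0.83). On these sets both were highest in pool 2 and lowest in pool 3. Eif3m read 1162, 1678 and 1157, again highest in pool 2. Another set of Eif3e, not measured by its mean signal, read 202, 40.8 and 29.8, above the floor in pool 1 only. Eif3f, printed above with its TOP tract, read 61.6, 231 and 107, above the floor in pool 2 only, so it gives a bound of at least 2.3-fold.

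Factors that choose the start codon and load the initiator tRNA were mixed, with a median SD of log2 signal of 0.22 over 5 sets of eIF1 and eIF1A and 0.301 over 5 sets of eIF2 and its relatives, beside 0.268 for all sets. Eif1b, a relative of the scanning factor eIF1, read 3158, 3317 and 3006, and Eif1ax, a form of eIF1A, read 1023, 1048 and 1126. Its autosomal relative Eif1a read 599.6, 949 and 784 on 1 set and 528, 710.2 and 786 on another, lowest in pool 1 on both, with ranges of 1.58-fold and 1.49-fold. Eif2d, which can also deliver tRNA to the ribosome, read 441, 542 and 669.5, a range of 1.52-fold. The eIF2 subunit Eif2s3x read 3605, 3757 and 5406, highest in pool 3 by 1.5-fold over pool 1 (limma adjusted p = 0.99). The beta subunit Eif2s2 read 276, 259 and 192 on 1 set and 302, 144 and 224 on another, the latter with a range of 2.1-fold. The exchange factor eIF2B, which recharges eIF2 with GTP and is mutated in vanishing white matter disease, was represented by Eif2b1 with 657, 570.0 and 538, Eif2b2 with 607, 667 and 684, Eif2b4 with 912, 972 and 841 and Eif2b5 with 684, 718 and 745. Another set of Eif2b5 was less steady, with 451, 369 and 663, a range of 1.8-fold and an SD of log2 signal of 0.43. Over the 5 measured eIF2B sets the median SD of log2 signal was 0.105, and none passed 2-fold. Joining factors were Eif5, which triggers GTP hydrolysis, with 1065, 1108 and 873, and Eif5b with 325, 299.5 and 308. A second Eif5b set read 152, 246 and 130.4, a range of 1.89-fold. Eif6, which keeps the subunits apart, read 828, 838 and 749.9.

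Of the kinases that phosphorylate eIF2 and so slow initiation, 3 of 4 were measured. Eif2ak1, the kinase that senses haem, read 188, 452 and 461, with pool 1 lower than the other two by up to 2.45-fold (unadjusted p = 0.03, limma adjusted p = 0.83). Eif2ak3, the sensor of the endoplasmic reticulum, read 157, 176 and 158, and Eif2ak4, the sensor of uncharged tRNA, read 234, 198 and 176. Their ranges were 1.12-fold and 1.33-fold. Eif2ak2, which double-stranded RNA activates, read 116, 93.1 and 39.2 and was not measured.

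**Figure D5:**
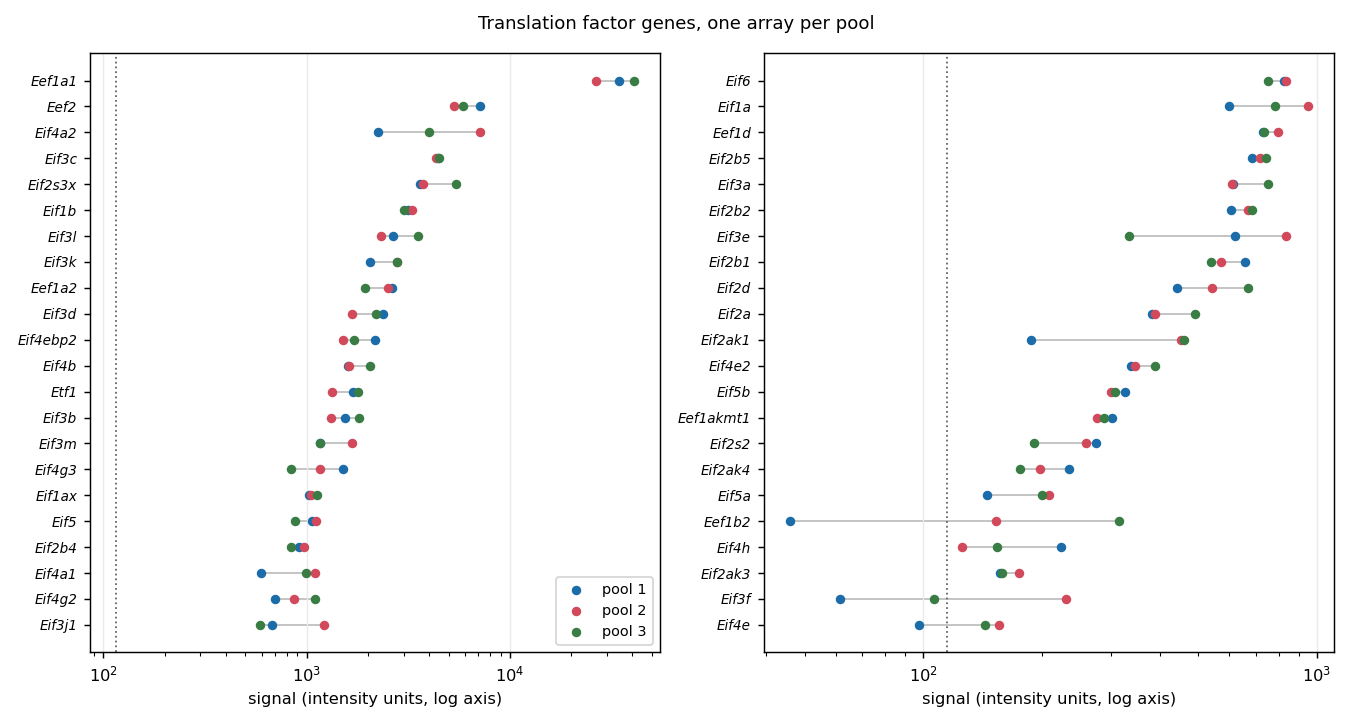
Signal of the 44 measured genes of initiation, elongation and release in intensity units (log axes of different range in the left and right panel), 1 point per pool, each gene by its probe set of highest mean signal. The dotted line is the mean background floor; Eif4a2 stands out on the left with signals from 2237 to 7113.

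Over the 37 measured initiation genes the maxima of 8 (21.6%), 14 (37.8%) and 15 (40.5%) lay in pools 1, 2 and 3. The shares of all measured genes were 34.6%, 33.6% and 31.8%. By median, log2 signal of the initiation genes in pool 1 differed by -0.06 from pool 2 and by -0.14 from pool 3. Between pools 2 and 3 the median was -0.01. The plot of factor signals shows each gene by its set of highest mean signal. In it the points of eIF2B lie together, while those of Eif4a2, Eif3e and Eif2ak1 lie apart. The less steady set of Eif2b5 is not shown there. The group had 7 of 45 sets past 2-fold (15.6%), against 13.2% of all sets.

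Elongation factors differed in their order of pools. Eef1a1, which delivers aminoacyl-tRNA, read 34232, 26509 and 40858, highest in pool 3 by 1.54-fold over pool 2 (mean 33870 ± 7182, SD, n = 3; limma adjusted p = 0.99). Eef1a2, the form of mature neurons and muscle, read 2619.9, 2499 and 1942, with pool 3 lowest, where Eef1a1 was highest. Eef2, the translocase, read 7121, 5306 and 5873, highest in pool 1. The exchange factor subunit Eef1d read 728, 797 and 732. Another exchange factor subunit, Eef1b2, was seen by an r-class set with 45.8, 153 and 315; pool 1 lay under the floor, so pool 3 was at least 3.13-fold higher (unadjusted p = 0.045, limma adjusted p = 0.89). Eef1akmt1, a methyltransferase of Eef1a named by its target, read 302, 276 and 288. The kinase Eef2k, which inhibits Eef2, read 41.8, 82.9 and 138 and was above the floor in pool 3 only.

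The release factor Etf1, which recognises stop codons, had 5 measured sets. An s-class set read 1682, 1326 and 1788, highest in pool 3. Of the plain sets 1 read 1409, 1036 and 1045, with pool 1 highest, another read 613, 836 and 824, with pool 2 highest, and the third read 546, 560.4 and 704. An r-class set read 158, 138 and 172. Ranges reached from 1.25-fold to 1.36-fold, and the sets did not share an order of pools.

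Such disagreement was common. Of 37 member genes with several sets 22 had at least 2 measured, and in 9 of these (40.9%) all measured sets had the same highest pool, against 34.5% of 1095 genes on the whole array.

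The X-linked members can be set beside Xist, which was under the floor in pool 1 and far above it in pools 2 and 3. Rps4x and Rpl39 were lowest in pool 1, as were Eif2s3x and Eif1ax. Their ranges were 1.34-fold, at least 1.95-fold, 1.5-fold and 1.1-fold, with 1.36-fold on another Eif1ax set. The autosomal Eif1a was also lowest in pool 1. Of the 129 measured member genes, 82 were lower in pool 1 than in pool 2 and 71 lower than in pool 3. Over all 6210 measured genes these counts were 3116 and 3114. The part of Xist in these values was not tested.

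Lists of genes that build or serve the ribosome held no call either, which at 0.216% of all sets called says little for lists of this size. For their other counts the shares of all sets were 5.34% at an unadjusted p under 0.05 and 13.2% past 2-fold. Of 44 measured genes of ribosome biogenesis 0 were called by limma and 0 had an unadjusted p under 0.05, with 2 past 2-fold (Polr1a and Bop1). Nucleolar proteins Ncl and Npm1 read 3769, 3439 and 2771 and 2997, 2852 and 3048 in pools 1, 2 and 3. The 11 measured genes of the TOR pathway had no call and none past 2-fold; Mtor itself read 1305, 968 and 1101. Among 21 aminoacyl-tRNA synthetase genes and their partners 0 were called, and Nars, the asparaginyl enzyme, had an unadjusted p of 0.033 with 369.6, 717 and 803. Of 20 other partners of translation 0 were called. Pabpc1, the poly(A)-binding protein, read 5052, 2268 and 3747, with pool 1 highest by 2.23-fold over pool 2 (unadjusted p = 0.011, limma adjusted p = 0.65), while Tpt1, whose message has a known TOP tract, read 25830, 22118 and 22150. The 7 measured genes of the integrated stress response and the 6 of mitochondrial translation also had no call and no unadjusted p under 0.05, with 1 past 2-fold in each (Ppp1r15b and Dap3).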

How the data were processed

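The deposited table holds 1 intensity per probe set and array for the 3 arrays. Its values had been scaled by the authors before deposit, since the trimmed means are equal, with the program and its background correction not given in the sources used here. Of its rows 12488 were probe sets and 1 was blank, and 66 control sets were kept out. The supplied platform annotation gave a single symbol to 10833 sets, several to 396 and none to 1193, and 10817 symbols were updated through a RefSeq gene table of GRCm38.p6. A gene is represented by its set of highest mean signal.

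The variance test was run with limma 3.58.1 in R 4.3.3 on log2 signals: an intercept-only model, a robust F fit with an intensity trend, and Benjamini-Hochberg adjustment over all 8327 measured sets. It was also run on simulated data in which sets of like signal shared the same SD. That run does not show how many true differences near 2-fold the test would miss in these data. The number of arrays limits the precision. Tables and figures were made with Python 3.11.15, pandas 2.3.3, numpy 2.4.6 and matplotlib 3.10.9.

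The rule for members uses symbols only, but the choice of this gene group and of the lists was made with earlier results of these data known. In each role group the rule named up to 5 sets of highest mean signal and up to 5 of largest SD, genes with several sets, X-linked members and paralogues. The counts of mitochondrial genes by pool, the alternative without the sets of the shared record and the genes named from the pathway lists were chosen after the values were seen. Pdk1, listed with the TOR pathway as an older name, was left out because the annotation uses it for another kinase. Proteins were not analysed here. Alternatives changed the floor, the filter, the offset, the normalization, the probe set classes, the variance fit, the choice of set per gene and the arrays.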

Additional observations from a re-analysis of the deposited data

How the results depend on the processing

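The count of called members was 0 in the main setting and became 1, Eif4a2 each time, with no filter and after quantile normalization (limma adjusted p = 0.0014 and 0.041). With the floor at the median control set, 31 of 179 member sets ranged past 2-fold instead of 15 of 157. With 1 array left out that count was 6 to 8, since a range over fewer arrays is smaller. Calls over all sets ran from 0 with no intensity trend to 52 with no filter. The median log2 difference of pool 1 minus pool 2 for mitochondrial ribosomal genes stayed between -0.27 and -0.19, and the counts highest in pool 2 and lower in pool 1 stayed within 28 to 34 and 37 to 44. Besides the 6 values given above, 147 group values and counts stayed within 1.5 times of the main value or, for median log2 differences, moved by less than the group's median SD between pools. That did not fix the sign of medians near 0: initiation factors in pool 2 minus pool 3 ran from -0.03 to 0.06 (main -0.01), the cytosolic ribosome in pool 1 minus pool 3 from -0.02 to 0.07 (main 0.03), and elongation and release in pool 1 minus pool 3 from -0.09 to 0.17 (main -0.01). For elongation and release pool 1 minus pool 2 ran from 0.07 to 0.25 and pool 2 minus pool 3 from -0.29 to -0.04. Of the single sets' values 198 kept their side of the threshold and 2, both of Eif4a2, did not. No paired analysis was possible because all arrays belong to 1 group.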
